A study of Canis lupus familiaris with 222 samples.

Results

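The 100 gene identifiers described here were those whose expression level in a dog's mammary tumor was closest to following the level in the same dog's normal mammary tissue. They were chosen by the data: among 24580 Ensembl gene identifiers, 12999 had a mean of at least 1 FPKM, a read density scaled to transcript length and library size, in both tissues of the 64 dogs with both, and the 100 with the largest Pearson correlation over those dogs between log2(FPKM + 1) of tumor and of normal tissue were taken as members. The correlations that chose them are therefore given as a description, with no test. The deposited table does not pair identifiers with gene names, so members are given by identifier and nothing is said of their function. For the same reason the labelled tissue could not be checked against marker genes.

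RNA-seq was performed on canine mammary tumors (CMTs) removed by surgery from female dogs and, for some of the dogs, on adjacent normal mammary tissue. The table held 222 libraries: 64 tumors and 64 normal tissues of the same 64 dogs, and tumors of a further 94 dogs with no normal library. The 94 tumors took no part in choosing the members, and all comparisons of the members with sample labels were made in them unless stated. The dogs were patients of several breeds, not a colony, and no treatment group was given in the labels.

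Of the 64 dogs, 48 had a malignant and 16 a benign tumor, 42 were intact and 22 neutered, and their ages ran from 2 to 19 years with a median of 12. Their surgery took place in 2016 for 13 dogs, 2017 for 40 and 2018 for 11. Of the 94 other dogs, 65 had a malignant and 29 a benign tumor, and 64 were intact and 27 neutered, with no status for 3. Age was known for 87 of them and ran from 2 to 16 years with a median of 12. Their surgery took place in 2016 for 29 dogs, 2017 for 59 and 2018 for 6. The 64 dogs belonged to 12 breed labels, most often Maltese (25 dogs), Mixed (10) and Shih Tzu (9). The most frequent breeds among the 94 were Maltese (23 dogs), Shih Tzu (15), Poodle (11) and Yorkshire Terrier (10). The library medians over eligible identifiers ran from 2.52 to 10.7 FPKM, and the number of reads behind each library is not in the table.

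In outbred animals, many genes differ in level from individual to individual and keep that difference across tissues. Textbook sources of such differences are inherited variants in regulatory sequence, deletion or duplication of a gene, and the highly variable genes of immune recognition. The labels give each dog a single surgery date, with 62 dates for the 64 dogs, so that the dog and its day of surgery cannot be told apart. In bulk tissue, fewer cells of a type and less RNA per cell cannot be told apart either.

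The members had correlations between 0.586 and 0.965, with a median of 0.671, whereas the median over all 12999 eligible identifiers was 0.210. A correlation of at least 0.9 was found for 10 members, at least 0.8 for 19 and at least 0.7 for 39. The last members inside the limit were ENSCAFG00000017127 (r = 0.5858) and ENSCAFG00000005160 (r = 0.5856), and the first identifiers outside it were ENSCAFG00000029478 (r = 0.5847) and ENSCAFG00000005069 (r = 0.5844). There was thus no gap at the limit, and 303 eligible identifiers had a correlation of at least 0.5. The members covered all levels of expression: 42 had a median of at least 10 FPKM in both tissues, 9 of at least 100 FPKM, and 14 had a median under 1 FPKM in at least 1 tissue. None of the members repeated the values of another identifier. When surgery year was removed from both tissues, the median correlation of the members was 0.672 and the lowest 0.398. When breed was removed, with Maltese, Shih Tzu and Mixed as groups and all other breeds pooled, they were 0.663 and 0.460. Differences among the pooled breeds were thus not removed. With every library scaled to the same median they were 0.670 and 0.366.

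The shape of the levels was sorted by a fixed rule into 3 patterns. A member was on-off when at least 3 dogs were under 0.1 FPKM in both tissues and at least 3 were at 1 FPKM or more in both. It was stepped when it was not on-off and the best division of the 64 dog means into a low and a high set, of at least 3 dogs each, held at least 85% of their variance. All others were graded. By this rule 5 members were on-off, compared with 2.13% of all eligible identifiers, 10 were stepped, compared with 0.469%, and 85 were graded. These shares are descriptions, since the same libraries chose the members. On-off and stepped members stood at the top of the list: 13 of the 15 were among the first 25 members, and none was below rank 38.

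ENSCAFG00000002706, on-off, had the largest correlation of all (r = 0.965). In 53 of the 64 dogs its tumor level lay between 0 and 1.52 FPKM with a median of 0, and in the other 11 dogs it lay between 29.7 and 154 FPKM with a median of 95.8. In the normal tissue of the same sets, the low dogs lay between 0 and 9.86 FPKM and the high dogs between 85.6 and 156 FPKM, with a median of 97.02. Tumor and normal tissue were on the same side of the midpoint in 63 of 64 dogs, and the low and high sets did not overlap in either tissue. The 94 other tumors showed the same gap: 26 were high, between 44.5 and 1224.5 FPKM, and 68 were low, between 0 and 2.12 FPKM.

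ENSCAFG00000008062, also on-off (r = 0.924), was high in 17 of 64 dogs. The high dogs lay between 1.35 and 7.48 FPKM in tumors and between 0.679 and 15.0 FPKM in normal tissue, and the low dogs reached at most 0.314 and 0.372 FPKM. It was listed at 0 in 46 tumors and 43 normal tissues of the 64 dogs. The sets did not overlap within a tissue, and 8 of the 94 other tumors lay above the midpoint. ENSCAFG00000017339, on-off (r = 0.881), divided the dogs more evenly, with 29 high and 35 low. Its high dogs ranged from 0.821 to 6.14 FPKM in tumors and from 1.01 to 6.99 FPKM in normal tissue, and its low dogs reached 0.726 and 1.22 FPKM, so that the sets overlapped in normal tissue. In the 94 other tumors, 52 lay above its midpoint.

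ENSCAFG00000002907, on-off (r = 0.732), had the widest range of the named members. Its tumor level ran from 0 through a median of 0.480 to 3172 FPKM in the 64 dogs, and its normal level from 0 through 0.283 to 1931 FPKM. Tumor and normal tissue were on the same side of the midpoint in only 56 of 64 dogs, and its high set, of 12 dogs, began at 0.583 FPKM in tumors while its low set reached 38.3 FPKM. The rule on dogs at both extremes thus named it on-off although its levels overlapped between the sets. The fifth on-off member, ENSCAFG00000028642, was looked at after its values were seen. It had 3 dogs off and 46 on in both tissues, and 53 of 64 dogs on the same side of the midpoint.

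The stepped member ENSCAFG00000002237 (r = 0.962) was never listed at 0. In tumors, 48 dogs lay between 0.253 and 2.76 FPKM with a median of 0.733, and 16 dogs between 7.61 and 125 FPKM with a median of 58.8. In normal tissue the same sets lay between 0.355 and 3.57 FPKM and between 33.3 and 155 FPKM. No dog of the low set reached the high set in either tissue, and the difference between the set means was 4.96 on the log2(FPKM + 1) scale. In the 94 other tumors, 25 were high (32.04 to 165 FPKM) and 69 low (0.254 to 2.18 FPKM).

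ENSCAFG00000018187, stepped (r = 0.958), was high in 25 of 64 dogs, between 64.8 and 309 FPKM in tumors and between 56.8 and 537.7 FPKM in normal tissue. Its 39 low dogs lay between 0.474 and 10.2 FPKM and between 0.752 and 11.0 FPKM. All 64 dogs were on the same side of the midpoint in both tissues. ENSCAFG00000008273, stepped (r = 0.957), also had all 64 dogs on the same side. Its 21 high dogs lay between 129.1 and 577.5 FPKM in tumors and between 78.7 and 1145 FPKM in normal tissue, and its 43 low dogs reached 29.3 and 22.7 FPKM. For both members the sets were apart in each tissue, and in the 94 other tumors 45 and 40 tumors, respectively, were high.

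**Figure D1:**
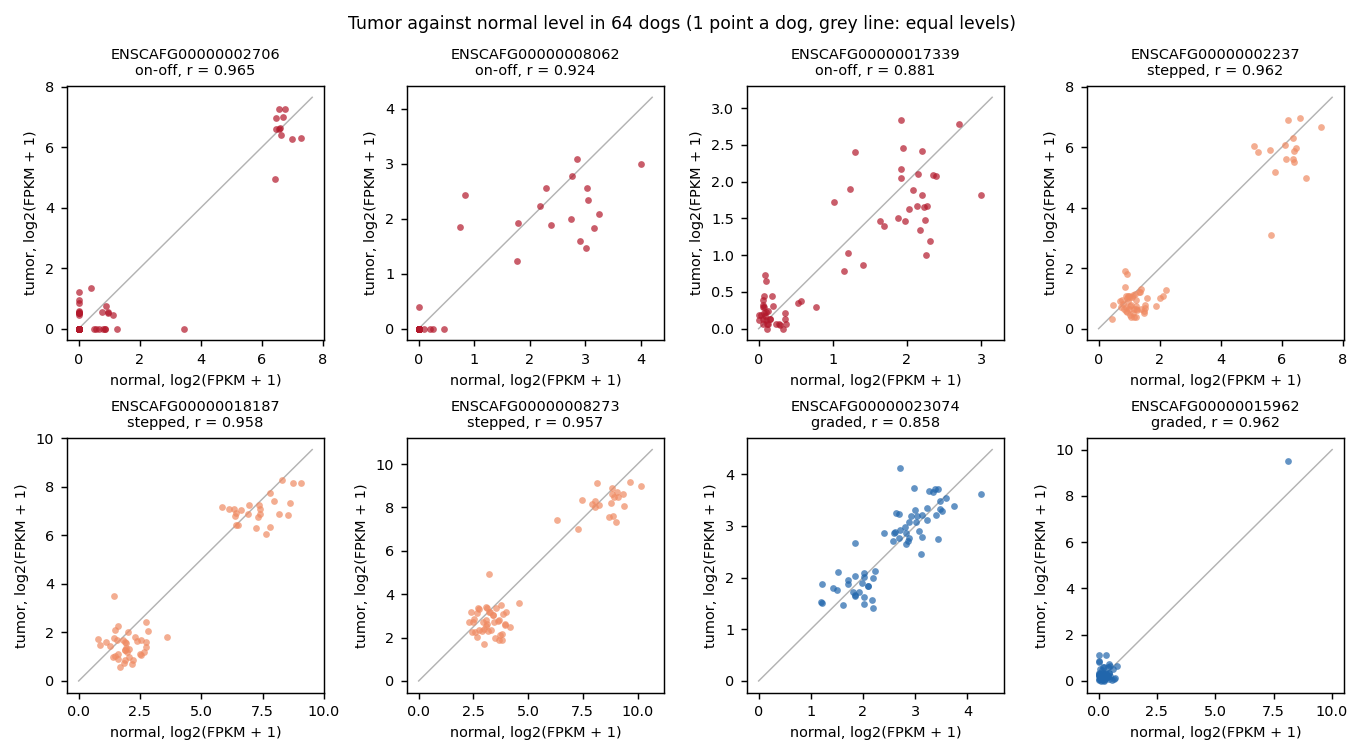
Each point is 1 of 64 dogs, with the level in normal tissue on the x axis and in tumor on the y axis, both as log2(FPKM + 1), for 8 members; the grey line marks equal levels. The on-off member ENSCAFG00000002706 and the 3 stepped members form a low and a high cloud, ENSCAFG00000023074 forms a band, and the correlation of ENSCAFG00000015962 rests on a single dog.

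Because the division of the 64 dogs was used by the rule, the best division was computed anew in the 94 other tumors. It held at least 85% of the variance for 10 members, compared with 138 of 12999 eligible identifiers (1.06%). All 10 were among the 15 on-off and stepped members, and 12 of these 15 had at least 80%. The values of the named ones were 96.5% for ENSCAFG00000002237, 95.95% for ENSCAFG00000002706, 93.99% for ENSCAFG00000018187, 93.7% for ENSCAFG00000008273, 90.6% for ENSCAFG00000008062 and 86.9% for ENSCAFG00000017339. ENSCAFG00000002907 had 82.0%. A low and a high set of dogs was therefore found again for most of these members in tumors of dogs that had not chosen them.

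**Figure D2:**
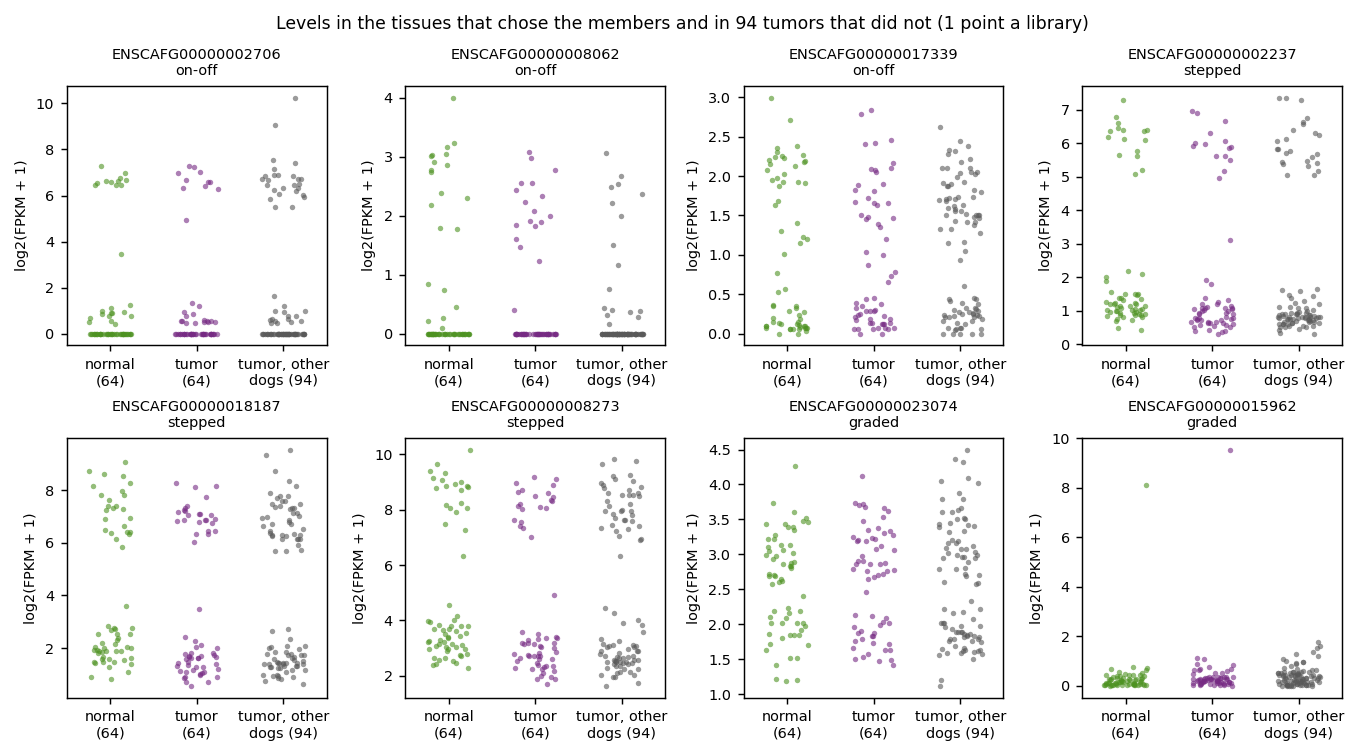
Each point is 1 library, with log2(FPKM + 1) on the y axis, for the same 8 members in 64 normal tissues, 64 tumors of the same dogs and 94 tumors of other dogs; points are spread sideways only to be seen. In ENSCAFG00000002237 and ENSCAFG00000018187 no tumor of the 94 lies in the gap between the low and the high set, and ENSCAFG00000015962 has no tumor above 2.40 FPKM among the 94.

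The graded class was the remainder of the rule. Among others, it held members whose levels formed a continuous range, described first, and members with a single high dog, described in later paragraphs. ENSCAFG00000004229 (r = 0.859) ran from 0.149 through a median of 2.40 to 6.33 FPKM in the 64 tumors and from 0.127 through 2.69 to 9.00 FPKM in normal tissue. ENSCAFG00000023074 (r = 0.858) ran from 1.67 through 5.801 to 16.3 FPKM in tumors and from 1.28 through 5.44 to 18.2 FPKM in normal tissue. ENSCAFG00000031337 (r = 0.849) ran from 0.112 through 4.78 to 29.5 FPKM in tumors and from 0.0339 through 3.798 to 14.9 FPKM in normal tissue. For all 3 the ranges of the tissues overlapped nearly whole. The best division of the dogs held 75.6%, 83.5% and 61.6% of the variance, so that ENSCAFG00000023074 lay just under the limit for a step. Over the 85 graded members the median difference between the set means was 1.03 on the log2(FPKM + 1) scale, whereas it was 3.63 for the stepped and 2.33 for the on-off members. ENSCAFG00000003314, named after its values were seen, was graded although its low and high sets were apart in each tissue. Its 5 low dogs reached 3.22 FPKM in tumors and 2.62 FPKM in normal tissue. Its 59 high dogs began at 6.86 and 8.82 FPKM.

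For 6 members the correlation fell under 0.5 when a single dog was left out. ENSCAFG00000015962, the third of the list, had a correlation of 0.962 with dog CMT-344 and of 0.0579 without it. This Yorkshire Terrier with a simple carcinoma had 739 FPKM in its tumor and 278 FPKM in its normal tissue, while no other of the 64 dogs exceeded 1.20 FPKM in tumor or 0.706 FPKM in normal tissue, and none of the 94 other tumors exceeded 2.40 FPKM. The same dog carried ENSCAFG00000003040, at 271.7 FPKM in tumor and 368 FPKM in normal tissue, with the next dogs at 22.3 and 0.529 FPKM; its correlation was 0.717 with the dog and 0.00675 without it. These 2 members were thus very high in both tissues of a single dog and low elsewhere.

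Another 3 of the 6 members rested on dog CMT-290, a Miniature Pinscher with an osteosarcoma of the mammary gland: ENSCAFG00000031961, ENSCAFG00000016799 and ENSCAFG00000001875. In its tumor they stood at 44.2, 319 and 233 FPKM, and in its normal tissue at 39.3, 282 and 126 FPKM. The next highest of the 64 dogs had 22.2, 148.6 and 105.1 FPKM in tumor and 19.9, 165 and 47.0 FPKM in normal tissue. Without this dog the correlations were 0.475, 0.424 and 0.423. The last of the 6, ENSCAFG00000032080, had 0.588 with and 0.458 without dog CMT-644. These members other than ENSCAFG00000015962 and ENSCAFG00000001875 were named after their values were seen. The rank correlation, which weighs such dogs less, was under 0.5 for 11 members.

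The next question was whether the level of the members shifted from normal tissue to tumor. The first fit set 64 tumors against 64 normal tissues without pairing those of a dog. In it, 20 of 100 members passed an adjusted p of 0.05 in limma, compared with 49.4% of the eligible identifiers. Of these, 9 were higher in tumors (32.1% of eligible identifiers) and 11 lower (17.3%). With a log2 difference of at least 1 as well, 3 members remained, compared with 4.98%, and all 3 were lower in tumors. None of the 15 on-off and stepped members passed in this fit, whereas 9 of them passed with the dog as a block, 7 lower and 2 higher in tumors, with differences between -0.46 and 0.29 on the log2 scale. The median size of the difference was 0.161 on the log2(FPKM + 1) scale over the members and 0.204 over all eligible identifiers. With every library scaled to the same median, 7 members were higher (24.9% of identifiers) and 13 lower (21.5%).

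The largest fall was that of ENSCAFG00000010290. It ran from 1.19 through a median of 96.9 to 565 FPKM in normal tissue and from 0.252 through 12.8 to 347 FPKM in tumors. The ranges overlapped, but the tumor was lower in 59 of 64 dogs, and the level fell by 1.99 ± 0.33 (SE) on the log2 scale (limma adjusted p = 4.25e-07). ENSCAFG00000008235 ran from 0 through 10.6 to 279 FPKM in normal tissue and from 0 through 1.59 to 72.1 FPKM in tumors. It was lower in 58 of 64 tumors and fell by 1.55 ± 0.28 (limma adjusted p = 2.09e-06). With the dog as a block, the limma adjusted p was 2.06e-12 for ENSCAFG00000010290 and 1.21e-12 for ENSCAFG00000008235. The third member lower by more than 1 on this scale varied with ENSCAFG00000008235 over the 94 other tumors (r = 0.848, n = 94).

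The largest called rise was that of ENSCAFG00000001875, from a range of 5.72 to 126 FPKM with a median of 14.9 in normal tissue to 7.69 to 233 FPKM with a median of 27.6 in tumors. The ranges overlapped, the tumor was higher in 58 of 64 dogs, and the difference was 0.77 ± 0.12 on the log2 scale (limma adjusted p = 1.51e-07). ENSCAFG00000018001 ran from 1.17 through 5.52 to 49.4 FPKM in normal tissue and from 1.46 through 10.1 to 53.1 FPKM in tumors. It was higher in 43 of 64 tumors, by 0.49 ± 0.19 (limma adjusted p = 0.0270), and lost the call when libraries were scaled to the same median (limma adjusted p = 0.0677). These fits did not pair the tissues of a dog. With the dog as a block, the limma adjusted p was 5.70e-12 for ENSCAFG00000001875 and 0.000498 for ENSCAFG00000018001.

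**Figure D3:**
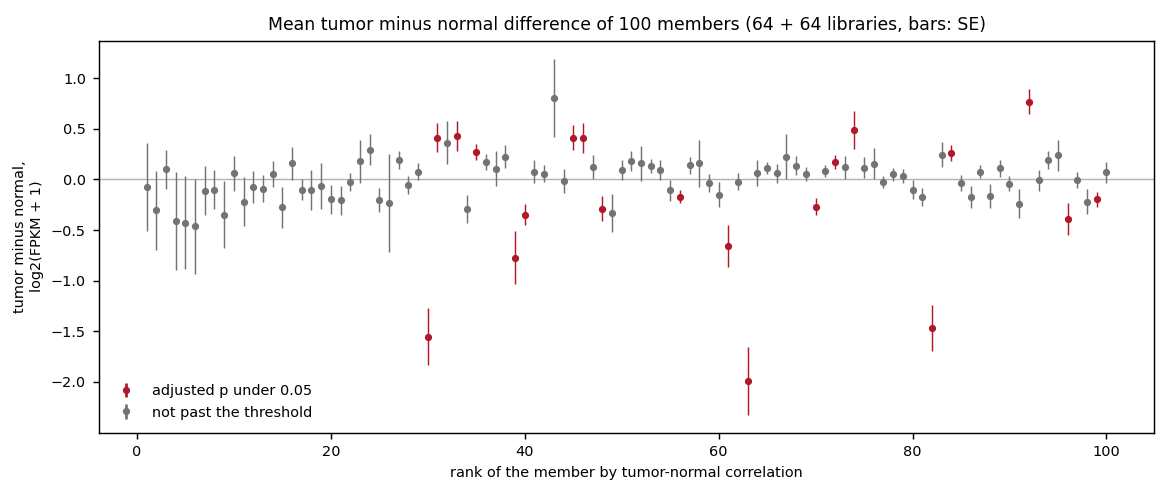
Mean tumor minus normal difference on the log2(FPKM + 1) scale (y axis) of each of the 100 members by rank (x axis), over 64 tumors and 64 normal tissues; bars are standard errors and red marks an adjusted p under 0.05. Both come from the fit without the dog as a term. The 3 lowest members fell by 1.99, 1.55 and 1.47, and the first members have wide errors, since the spread between dogs enters them.

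These counts came from a fit without the dog as a term, in which the spread between dogs enters the error. With the dog as a block, 52 members passed, compared with 54.8% of the eligible identifiers, so that the members no longer stood below the share of all. Of these, 24 were higher (35.3% of identifiers) and 28 lower (19.4%), and 3 had a log2 difference of at least 1. A high tumor-normal correlation narrows the paired error by construction: the median standard error of the members was 0.122 without and 0.0658 with the block. For the stepped member ENSCAFG00000002237 the difference was -0.31 in either fit, with a limma adjusted p of 0.530 without and 0.000551 with the block, against 4.96 between its low and high dogs.

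Histology was compared over the 7 classes of the labels in the 94 other tumors. The test called 4 members, compared with 314 of 12999 identifiers (2.42%). ENSCAFG00000031859, the first of them, ran from 3.00 through 17.3 to 42.2 FPKM in the 5 tumors of the class of other diagnoses, which held osteosarcomas, a fibrosarcoma, a carcinosarcoma and a spindle cell carcinoma. In the 39 simple carcinomas it ran from 0.579 through 2.11 to 10.8 FPKM (limma adjusted p = 0.000184 over all classes). The ranges overlapped, and the highest median stood in the class of other diagnoses.

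The same class had the highest medians of the next members. ENSCAFG00000002923 had a median of 64.3 FPKM there (3.96 to 166) and of 3.92 FPKM in simple carcinomas (0.548 to 50.7; limma adjusted p = 0.000430). ENSCAFG00000001875 had a median of 77.7 FPKM there (31.9 to 255) and of 27.2 FPKM in simple carcinomas (7.43 to 53.6; limma adjusted p = 0.00222). The fourth, ENSCAFG00000031961, had a limma adjusted p of 0.0183; it and ENSCAFG00000001875 were also among the members that rested on the dog with an osteosarcoma. In a fit chosen after seeing the data, without the 5 tumors of this class, no member and no other identifier passed in limma, and 6 members and 692 of 12999 identifiers (5.32%) had an unadjusted p under 0.05.

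Malignant and benign tumors, neutered and intact dogs, and the dogs' age gave no call in the 94 other tumors, neither among the members nor among all eligible identifiers (0 of 12999, or 0%, in each). At an unadjusted p under 0.05, malignancy gave 5 members compared with 11.2% of identifiers, neuter status gave 7 compared with 4.34%, and age gave 2 compared with 5.27%. A test that misses the threshold does not show that the levels were the same.

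Surgery year called 28 members in the 94 other tumors, compared with 47.6% of the eligible identifiers. In all 158 tumors it called 23 members and 2829 of 12999 identifiers, and in the 64 normal tissues 24 members and 2625 of 12999. Both sets hold libraries that chose the members, and in neither did the members stand below the share of all. None of the 28 members called in the 94 tumors was on-off or stepped. ENSCAFG00000029754 ran from 0.619 through a median of 2.01 to 2.96 FPKM in the 29 tumors of 2016, from 0.102 through 0.785 to 3.22 FPKM in the 59 of 2017, and from 0 through 0.618 to 1.52 FPKM in the 6 of 2018 (limma adjusted p = 6.88e-07). In normal tissue its medians were 2.09 FPKM in 2016, 1.24 FPKM in 2017 and 1.36 FPKM in 2018. The level was thus highest in 2016 in both, with overlapping ranges.

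ENSCAFG00000030056 had tumor medians of 1.83, 0.736 and 0.247 FPKM in the 3 years (limma adjusted p = 1.43e-05) and normal medians of 2.98, 0.901 and 0.624 FPKM. ENSCAFG00000004101 had tumor medians of 4.51, 2.41 and 1.44 FPKM (limma adjusted p = 0.000123) and normal medians of 4.53, 2.499 and 2.19 FPKM. Both were highest in 2016 in either tissue. The normal tissues helped choose these members, and a year difference shared by both tissues raises the correlation that chose them. The normal medians are therefore a description and no second test. With surgery year removed, the correlations of the 3 members, in the order named, were 0.465, 0.398 and 0.564, compared with 0.615, 0.590 and 0.601. The labels give no sequencing or extraction date, and what part of the differences between years came from handling was not tested.

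Breed was compared over the 4 breeds with at least 10 dogs among the 94, in 59 tumors. No member and no other identifier passed the adjusted threshold in limma (0 of 12999, or 0%). At an unadjusted p under 0.05, however, 26 of 100 members were found, compared with 1038 of 12999 identifiers (7.99%). Breed and surgery year were not independent in these tumors: most of the Yorkshire Terriers had surgery in 2016, and the Poodles had it later. With surgery year as a covariate, 25 members and 1432 of 12999 identifiers had an unadjusted limma p under 0.05. The median share of variance that lay between breeds, corrected for the number of breeds, was 3.31% over the members and 0.828% over all identifiers. When all 158 tumors were used, which adds tumors that chose the members, 99 tumors of the 4 breeds entered, and 12 of the 29 identifiers called were members (0.223% of all identifiers were called). In the normal tissues of Maltese and Shih Tzu, a fit chosen after seeing the data, 31 members had an unadjusted p under 0.05, compared with 25.2% of identifiers, so that the members stood less far above the share of all there.

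The counts of high dogs by breed for single members are given as a description, since no identifier passed the adjusted threshold for breed. ENSCAFG00000018187 was high in 12 of 15 Shih Tzu and 8 of 10 Yorkshire Terriers among the 94, and in 8 of 23 Maltese and 4 of 11 Poodles (unadjusted limma p = 0.00736, adjusted p = 0.608). Among the 64 dogs, which chose it, it was high in both tissues of 8 of 9 Shih Tzu and 7 of 25 Maltese. Its level in the Shih Tzu of the 94 ran from 0.928 through 85.5 to 742.8 FPKM and in the Maltese from 0.680 through 2.32 to 327 FPKM, with overlapping ranges.

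ENSCAFG00000017339 went the other way. It lay above the midpoint in 3 of 15 Shih Tzu and 16 of 23 Maltese among the 94 (unadjusted limma p = 0.00386, adjusted p = 0.608), and in the tumors of 0 of 9 Shih Tzu and 16 of 25 Maltese among the 64. ENSCAFG00000002706 was high in 7 of 10 Yorkshire Terriers, 6 of 23 Maltese and 2 of 15 Shih Tzu among the 94 (unadjusted limma p = 0.0204, adjusted p = 0.608), but in none of the 4 Yorkshire Terriers among the 64. ENSCAFG00000008273 was high in 7 of 23 Maltese, 7 of 15 Shih Tzu, 5 of 11 Poodles and 5 of 10 Yorkshire Terriers (unadjusted limma p = 0.681). ENSCAFG00000008062 lay above the midpoint in 6 of 23 Maltese and in no Shih Tzu, Poodle or Yorkshire Terrier among the 94 (unadjusted limma p = 0.0716), but in the tumors of 3 of 9 Shih Tzu and 2 of 4 Yorkshire Terriers among the 64. High and low dogs were found within each of these 4 breeds for ENSCAFG00000018187, ENSCAFG00000017339, ENSCAFG00000002706 and ENSCAFG00000008273 in the 94 tumors.

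**Figure D4:**
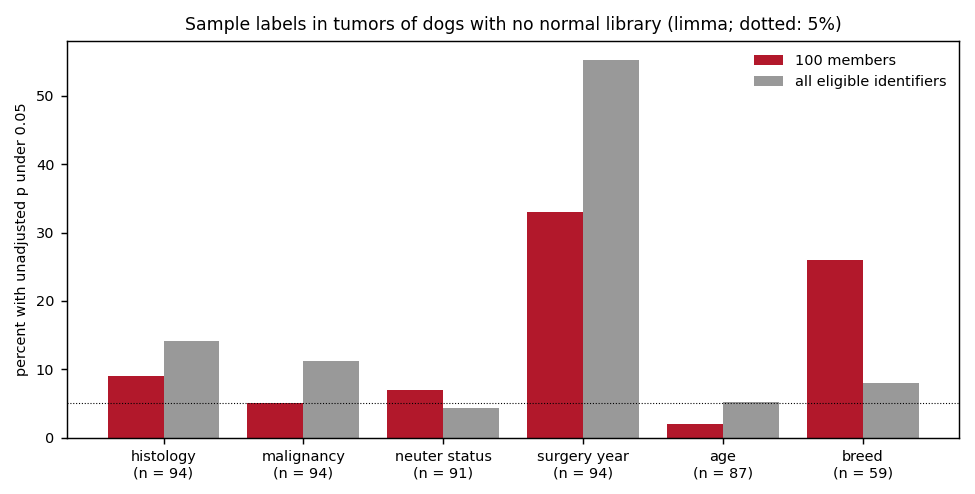
Percent of the 100 members (red) and of the 12999 eligible identifiers (grey) with an unadjusted limma p under 0.05 for each sample label, in tumors of dogs with no normal library (n under each label; dotted line at 5%). The members stand above the grey bar for breed (26% and 7.99%) and below it for surgery year (33% and 55.3%), histology, malignancy and age. For neuter status, which called no identifier, the bars are near each other (7% and 4.34%).

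The labels give no expression cluster, so that the main axes of variation between tumors were used in its place: the first 5 principal components of the eligible identifiers that were not members, in the 94 other tumors. They held a median of 29.4% of a member's variance and 52.0% of that of all eligible identifiers. Unlike the share between breeds, this share was not corrected for the number of axes, so that an unrelated identifier would also hold some variance on them. More than 50% lay on these axes for 18 members, compared with 53.3% of identifiers, and less than 10% for 14 members, compared with 2.07%. The on-off and stepped members had between 1.06% and 23.9%, with a median of 8.27%. ENSCAFG00000018187 had the 1.06%, ENSCAFG00000008062 had 2.92% and ENSCAFG00000002237 had 4.38%.

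The list was not uniform in this respect. The first 25 members had a median of 9.92% on the axes, the next 25 26.4%, the third 25 44.5% and the last 25 39.3%. Surgery year called 2, 6, 10 and 10 members in the same order, and an unadjusted p under 0.05 for breed was found for 12, 7, 1 and 6. The tumor-normal difference passed for 0, 9, 6 and 5 without and for 13, 16, 11 and 12 with the dog as a block. The members with the largest correlations thus lay mostly off the main axes, and those lower in the list lay on them more often. The correlation with the library's median FPKM over the 94 tumors exceeded 0.5 in size, in either direction, for 7 of 100 members and for 4923 of 12999 eligible identifiers.

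**Figure D5:**
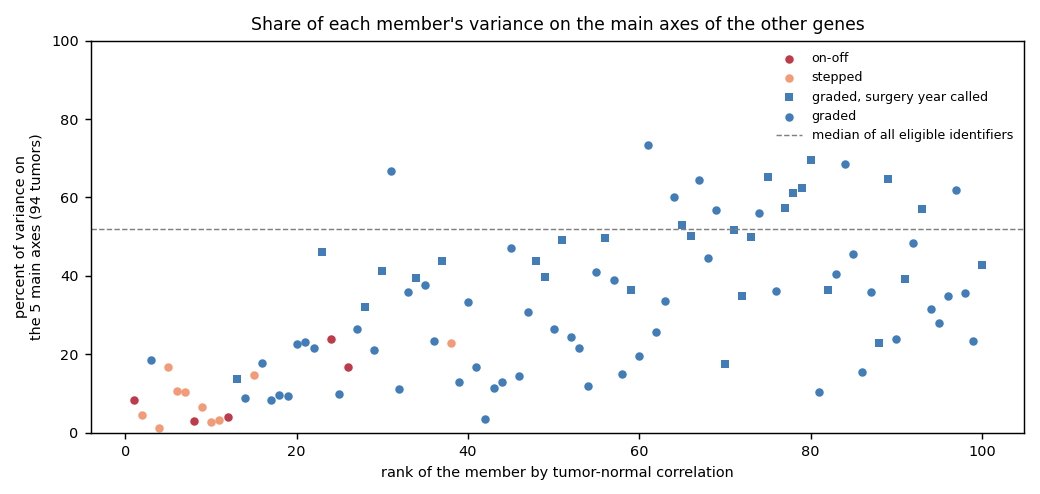
Percent of variance on the 5 main axes in 94 tumors (y axis) for each of the 100 members by rank (x axis); colors give the pattern, squares mark members called for surgery year and the dashed line is the median of all eligible identifiers, 52.0%. The on-off and stepped members all lie at or below 23.9%, and no square is among them.

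The members varied mostly apart from each other. Over the 94 other tumors the median size of the correlation between members was 0.119 over 4950 pairs, and 16 pairs reached 0.7 in size. At a mean correlation of 0.7, 12 groups of members formed, with 25 members in all. The largest held 3: ENSCAFG00000029520, ENSCAFG00000029636 and ENSCAFG00000005160, with pairwise correlations of 0.963, 0.831 and 0.782 (n = 94 tumors, which share their libraries). Their medians in the 94 tumors were 11.6, 13.7 and 50.3 FPKM.

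Close pairs stood among graded and stepped members and are named here after their values were seen. The closest was the graded pair ENSCAFG00000014627 and ENSCAFG00000009708, with a correlation of 0.995 over the 94 tumors. The stepped pairs below entered the count of stepped members as separate identifiers. ENSCAFG00000002237 and ENSCAFG00000004857 had a correlation of 0.987 over the 94 tumors, and each was high in 16 of 64 dogs and 25 of 94 tumors. ENSCAFG00000008273 and ENSCAFG00000030958 had 0.977, and each was high in 21 of 64 dogs and in 40 and 39 of 94 tumors. In the 64 dogs ENSCAFG00000004857 ran from 2.95 to 358 FPKM in tumors and ENSCAFG00000030958 from 7.496 to 2217 FPKM. The identifiers' positions are not in the table, and whether the members of a pair overlap or share reads was not tested.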

How the data were processed

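Poly(A) RNA of 222 tissues was sequenced. The authors mapped reads to CanFam3.1 with TopHat2 2.0.9, which uses Bowtie2, and computed FPKM values with Cufflinks 2.1.1 from Ensembl genes (tools credited to the submitters' processing notes). The deposited table holds these FPKM values per gene and library, 1 column a library. It gives no read counts, so that depth and counting error are unknown. FPKM does not correct for a few genes taking a large share of reads.

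Groups came from the sample labels. Values were used as log2(FPKM + 1). Labels were tested with limma 3.58.1 (R 4.3.3) with an intensity trend, two-sided or by F test, with Benjamini-Hochberg adjustment over the 12999 eligible identifiers, and calls were made at an adjusted p under 0.05. The fit without a block was tested on simulated data with independent genes and a spread of at most 1 on the log2 scale. For tumor against normal and for surgery year it recovered 200 of 200 identifiers changed by 1.5 on the log2 scale, with 10 false calls among the unchanged identifiers in each. The change was far larger than the members' median tumor-normal difference of 0.161. The check therefore says little of smaller shifts or of members with a wider spread. Tumor and normal libraries of a dog were paired by the dog number in the labels; over the eligible identifiers the median correlation of the paired tissues was 0.210. Each dog gave at most 1 library per tissue, so that the spread is between dogs.

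Members, lists and tests were chosen with earlier results of these data known. Named identifiers were the 5 largest correlations, 4 on-off, 3 stepped and 4 graded members, the 2 largest called rises and falls, the 3 smallest adjusted p of each label that called any (histology and surgery year), the members at the limit and the largest group. The NMF clusters of the study are not in the labels and were not used. Gene names, sequences and gene lists were not analysed here. Alternatives were other pseudocounts, filters, scalings, covariates, library sets, a block for the dog and leaving out each dog.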

Additional observations from a re-analysis of the deposited data

Results flagged for a closer look

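Levels of named members were checked for a library far from the rest in 22 groups of 5 to 10 tumors of the 94, and 5 groups held such a library. Chance gives about 1 in 20 groups for normally distributed values, and this rate does not apply to on-off and stepped members, in which a lone high dog in a small group is far from the rest by construction. The measure is the gap to the next library divided by the range of the group. In benign mixed tumors (7), the tumor of dog CMT-695 was far above the others for ENSCAFG00000031859 (23.5 FPKM, next 6.52; 0.786 of the range) and for ENSCAFG00000002923 (81.8 FPKM, next 21.1; 0.782 of the range). Both members also had their highest medians in the class of other diagnoses.

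In Yorkshire Terriers (10), dog CMT-128 was far above the others for ENSCAFG00000002237 (42.7 FPKM, next 1.71; 0.970 of the range), dog CMT-106 for ENSCAFG00000002907 (5045 FPKM, next 43.6; 0.991 of the range) and dog CMT-153 for ENSCAFG00000008062 (0.285 FPKM, with all others listed at 0; 1.00 of the range). For ENSCAFG00000002237 the far dog belonged to the high set of the member, which 25 of 94 tumors did.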

How the results depend on the processing

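Of the 100 members, 64 were kept when a mean of at least 5 FPKM was required, and between 89 and 98 were kept when each of the 64 dogs was left out in turn (lowest without dog CMT-201). The rank correlation kept 72, and scaling libraries to the same median kept 73. With a mean of at least 0.5 FPKM 81 were kept, with surgery year removed 81, with breed removed (rarer breeds pooled) 86 and with a pseudocount of 0.1 91. With 0.5 FPKM as the limit for off, 17 members were on-off in place of 5. With the replicate block, in which tumor and normal tissue of a dog were paired, 52 members in place of 20 passed for tumor against normal, and 54.8% in place of 49.4% of all identifiers. Histology called 12 members in all 158 tumors (16.7% of identifiers) and 0 in the 64 normal tissues (limma, 12 at an unadjusted p under 0.05, compared with 7.34% of identifiers), and 0 in the 94 tumors without the class of other diagnoses (chosen after seeing the data). Breed called 12 members in all 158 tumors, with 43 at an unadjusted p under 0.05 (15.8% of identifiers), and 4 in the normal tissues of Maltese and Shih Tzu (chosen after seeing the data). For the last, 85 of 12999 identifiers (0.654%) were called, and 31 members had an unadjusted p under 0.05 (25.2% of identifiers). Maltese against Shih Tzu in the 94 tumors, also chosen after seeing the data, called 0 members in limma, with 26 at an unadjusted p under 0.05 (7.38% of identifiers). A breed test in the normal tissues by the planned rule was not run, since only Maltese had 10 dogs there.

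The other 126 comparisons of a count with its alternative stayed within 1.5 times or were 0 in both. They compared counts of members only, and the count over all identifiers could change more. Surgery year called 6185 of 12999 identifiers in the 94 tumors, 2829 in all 158 and 2625 in the 64 normal tissues. Most of the 126 comparisons left out a single dog in the choice of members, or set 0 calls against 0 for age, malignancy, neuter status or breed. They therefore say little of how the results depend on the processing. Direction was compared only for the tumor-normal difference of the named rises and falls, and none was reversed. Among single members, 7 calls were lost: that of ENSCAFG00000018001 under scaling, and those of ENSCAFG00000031859, ENSCAFG00000002923 and ENSCAFG00000001875 for histology in the normal tissues and without the class of other diagnoses. The cause was not tested, beyond the fewer tumors that the last fit holds.

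The table holds no read counts, so that a level listed at 0 cannot be told from a low one. Surgery year, taken from the surgery date, was the only mark of time tested, and the labels name no sequencing batch.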
